A study of Mus musculus with 4 samples.

Results

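The PIWI proteins and the factors that make and use their small RNAs were followed across germ cells of both sexes, with and without an inducible deletion of Max. They are 10 genes, chosen by name as members of the PIWI-interacting RNA (piRNA) pathway, of 30738 genes measured: Piwil1, Piwil2, Piwil4, Mael, Mov10l1, Asz1, Pld6, Gtsf1, Exd1 and Pnldc1. Primordial germ cells (PGCs), the embryonic founders of sperm and eggs, were sorted with anti-SSEA-1 magnetic beads from gonads freed of mesonephros at E12.5, the embryonic day given by the labels. FC is female and MC male PGCs that carried the Oct4dPE-CreERT2 transgene, in which the distal enhancer of Oct4 drives a Cre recombinase that tamoxifen switches on, and F and M are their female and male counterparts with no CreERT2. Every embryo, controls included, was homozygous for floxed Max on a strain labelled C57/BL6 and was exposed to tamoxifen at E8.5. Each of the 4 conditions has 1 DNA microarray, so no difference between 2 arrays has a replicate check or a p-value. The number of embryos behind each array is not given in the sources used here, and the share of germ cells that had lost Max was not measured on the arrays. Values are deposited log2 signals, on which a difference of 1 is 2-fold. Counts below are of genes that lay at least 1 apart on this scale.

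piRNAs are small RNAs of the germline that guide PIWI proteins to transposon transcripts, which are then cleaved or, in the nucleus of fetal male germ cells, silenced through DNA methylation of their copies. Long precursor transcripts are bound by an RNA helicase, cut at the surface of mitochondria, loaded into a PIWI protein and trimmed, in cytoplasmic granules termed nuage. In the mouse the pathway is best known from the testis, where loss of most of these factors frees transposons and stops sperm formation. MAX, the partner of MYC proteins and of MGA, binds the E-box CACGTG, and with MGA it belongs to the repressive complex PRC1.6, which also holds E2F6, a factor that binds the E2F core TCCCGC.

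The promoters of the genes are shown for the 4 members that hold an E-box, since this is the DNA word that MAX dimers recognize. Promoter windows of 300 bases, 250 before and 50 from the annotated transcription start, came from RefSeq on GRCm38.p6. A window was found for 8 of the 10 genes and not for Piwil2 and Pnldc1. In the sequences, written 5′ to 3′ on the strand of the gene, capitals mark the E-box (CACGTG, its own reverse complement) and the E2F core (TCCCGC, or GCGGGA on the other strand), which do not overlap. The windows are chr1:166238695-166238994 on the minus strand for Mael, chr15:88982744-88983043 on the plus strand for Mov10l1, chr5:128735996-128736295 on the plus strand for Piwil1, and chr11:59787608-59787907 on the minus strand for Pld6.
Mael: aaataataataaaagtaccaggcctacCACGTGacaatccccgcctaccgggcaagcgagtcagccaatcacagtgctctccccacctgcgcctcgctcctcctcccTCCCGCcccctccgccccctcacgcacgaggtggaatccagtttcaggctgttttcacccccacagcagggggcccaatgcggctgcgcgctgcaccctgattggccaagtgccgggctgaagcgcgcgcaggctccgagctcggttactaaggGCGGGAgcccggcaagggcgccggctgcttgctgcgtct
Mov10l1: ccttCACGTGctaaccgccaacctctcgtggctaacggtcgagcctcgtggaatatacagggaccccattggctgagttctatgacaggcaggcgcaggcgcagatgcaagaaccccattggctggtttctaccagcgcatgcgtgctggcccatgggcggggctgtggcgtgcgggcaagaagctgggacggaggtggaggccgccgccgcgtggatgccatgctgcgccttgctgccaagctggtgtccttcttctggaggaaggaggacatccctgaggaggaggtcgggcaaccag
Piwil1: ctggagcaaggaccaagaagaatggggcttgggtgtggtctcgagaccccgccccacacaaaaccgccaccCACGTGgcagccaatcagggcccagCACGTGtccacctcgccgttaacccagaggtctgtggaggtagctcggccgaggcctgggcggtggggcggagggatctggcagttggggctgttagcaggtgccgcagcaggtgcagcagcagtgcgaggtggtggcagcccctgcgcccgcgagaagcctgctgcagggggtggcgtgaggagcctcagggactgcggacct
Pld6: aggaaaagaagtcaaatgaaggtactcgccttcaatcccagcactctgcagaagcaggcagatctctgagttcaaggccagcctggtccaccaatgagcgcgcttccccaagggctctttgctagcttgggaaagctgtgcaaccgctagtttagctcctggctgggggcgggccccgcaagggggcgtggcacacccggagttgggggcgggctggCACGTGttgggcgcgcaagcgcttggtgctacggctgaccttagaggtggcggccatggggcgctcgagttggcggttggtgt

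An E-box was found in 4 of the 8 genes with a window, and in 4 of their 10 windows, against 7.15% of all 32851 windows in the table. With no position 0, and the start base as the first positive position, the match began at -223 in Mael, at -246 in Mov10l1 and at -33 in Pld6. Piwil1 held 2 matches, at -179 and -154, and 2 or more were found in 0.594% of all windows. The E2F core was found in Mael and Exd1, against 20% of all windows. Mael held it at -143 and again at 12, and was the only one of the 8 genes with both motifs. The T-box motif AGGTGTGA, searched on both strands, was found in none of the 8 genes and in 1.28% of all windows. The Mael window held 24 CpG dinucleotides, an observed over expected ratio of 0.780, above 77.41% of all windows, and the Mov10l1 window held 20, a ratio of 0.674. Across all windows the median ratio was 0.384. The ratio was 0.793 in Exd1, 0.783 in Asz1 and 0.531 in Gtsf1. Pld6, with a further window that held no E-box, had ratios of 0.633 and 0.701. Piwil4 also has 2 windows, with no motif match and ratios of 0.543 and 0.000. A match is a description of letters and was not set against binding data. The map of motif matches shows that the E-boxes had no common distance from the start.

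**Figure D1:**
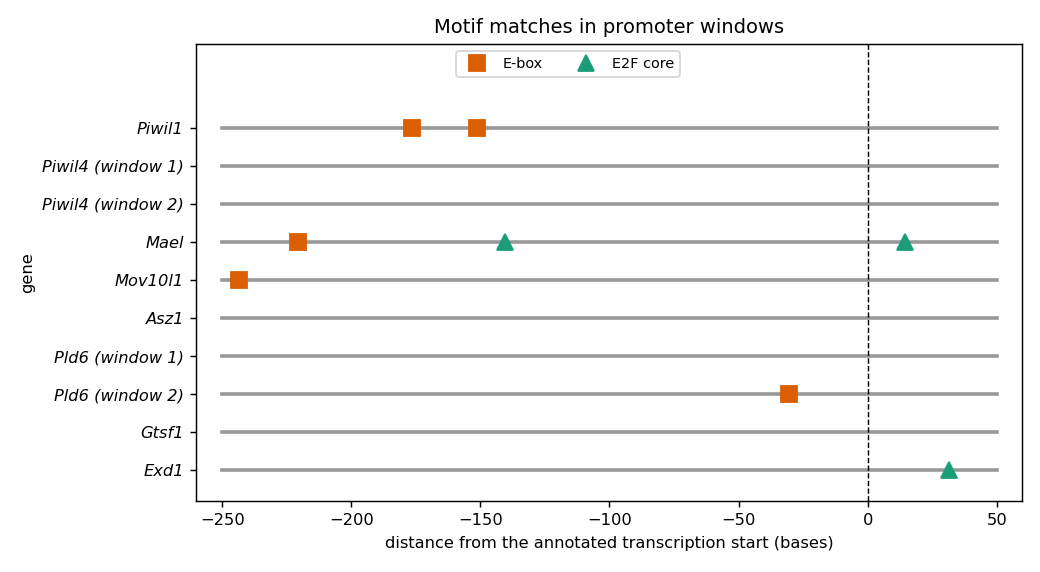
Positions of the E-box (squares) and the E2F core (triangles) in the promoter windows of 8 genes, drawn as grey lines; the x axis is the distance in bases from the annotated transcription start and each row is 1 window. Squares fall in Piwil1 (2), Mael, Mov10l1 and 1 of the 2 Pld6 windows, and triangles in Mael (2) and Exd1.

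The sort and the arrays were checked on marker genes. All 9 germ cell markers were measured, among them Dazl, whose protein binds germ cell transcripts and which had log2 signals of 16.53 in FC, 16.57 in F, 15.56 in MC and 15.25 in M. Markers of other gonadal cells were also present. The summed linear signal of the 7 measured endothelial markers was 1031 in FC, 1561 in F, 2038 in MC and 2223 in M. The 4 measured erythroid markers did not move together. The globin genes Hbb-y and Hbb-bh1 had differences of -0.57 and -0.70 in FC minus F and of -1.22 and -0.60 in MC minus M, whereas Hba-x had 0.80 and 0.57, and Alas2 had 0.24 and 0.19, in females and males. Their summed linear signal, most of it from Hbb-y, was 26317 in FC, 39103 in F, 7240 in MC and 16463 in M. That of the 5 pregranulosa markers was 246 in FC, 211 in F, 208 in MC and 174 in M, with Foxl2, a defining gene of these cells, between 2.98 and 3.04 on the 4 arrays. The F array went against its label in part. All 3 measured Y-linked genes had lower signals in FC (4.50 to 4.78) than in F (5.42 to 6.60), while those in MC were 6.33 to 8.54 and those in M 6.28 to 7.90, and Xist, the X inactivation RNA, had 10.81 in FC and 7.80 in F. The differences of FC from F and of M from F rest on this array, whereas those of MC from M and of MC from FC do not. In bulk germ cells, fewer cells of a type and less RNA per cell cannot be told apart. Max had signals of 10.31 in FC and 10.75 in F, and of 10.33 in MC and 10.64 in M. Its 1 cluster was not resolved by exon, so these values are no measure of the deletion.

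Mael and Mov10l1 were the 2 members with at least 2-fold higher signals in germ cells with CreERT2, and they were so in both sexes. FC exceeded F by 2-fold or more in 2 of the 10 genes, against 0.547% of all genes, and MC exceeded M by as much in the same 2, against 0.224% of all genes. No member was 2-fold lower in either sex, against 0.508% of all genes in FC and 0.475% in MC, or 0.0423% in both. Among all genes 25, or 0.0813%, were 2-fold higher in both sexes. The study had picked Mael, Mov10l1, Pld6, Exd1 and Pnldc1 for its own gene lists on these same arrays, so their counts are not independent of that choice. At a threshold of 1.5-fold, 2 members were higher in FC (1.99% of all genes) and Pnldc1 was lower (2.81%), while Mael, Mov10l1 and Exd1 were higher in MC (1.56%) and Pld6 was lower (2.68%). Differences below 0 were found in 5 members in FC, against 50.1% of all genes, and in 4 in MC, against 47.3%. The 8 members other than Mael and Mov10l1 had differences between -0.85 and 0.69. The median difference over the 10 genes was 0.195 in FC minus F and 0.065 in MC minus M, beside -0.01 and 0.01 over all genes. The 9 germ cell markers had medians of 0.07 and 0.11. All 5 pregranulosa markers were above 0 in both sexes, with medians of 0.20 in FC minus F and 0.18 in MC minus M. Among them were Lgr5 at 0.39 and 0.51 and Foxl2, of low signal, at only 0.01 and 0.06. Of the 5 Sertoli cell markers, 4 were above 0 in each sex, with medians of 0.14 and 0.10. Amh, 1 of the 5, had -0.21 in FC minus F and 1.02 in MC minus M. Of the 7 endothelial markers, 6 were below 0 in FC minus F, 3 of them by at least 2-fold, with a median of -0.76. The part of these cells in the differences of the members was not tested, nor was that of the Y-linked signals of F in the female differences. The male differences do not use the F array.

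Mael encodes an HMG-box protein of nuage that is required for transposon silencing in male germ cells of the mouse. Its signals were 14.41 in FC and 12.31 in F, and 12.68 in MC and 10.60 in M. The array of each sex with CreERT2 lay above its control, and MC lay just above F. The difference was 2.10 in females, 4.29-fold and rank 21 from the highest of 30738 genes, and 2.08 in males, 4.23-fold and rank 3. Genes with a mean signal of 12 or more, as Mael has, had a median difference of -0.06 and a standard deviation over genes of 0.298 in FC minus F, and of -0.11 and 0.274 in MC minus M. Mael had 1 transcript cluster, and the gene spans chr1:166201385-166238744 on GRCm38.p6, the build of all positions here.

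Mov10l1 encodes the RNA helicase that binds piRNA precursors and feeds them into processing. It had signals of 10.33 in FC and 8.80 in F, and of 8.93 in MC and 7.70 in M. Again each array with CreERT2 lay above the control of its sex, by 1.53 in females (2.89-fold) and by 1.23 in males (2.35-fold). These differences ranked 48 and 31 from the highest among all genes. Of genes with a mean signal of 8 to 10, the share at 2-fold or more was 1.37% for FC above F and 0.386% for MC above M. The gene lies at chr15:88982891-89055152. Its paralogue Mov10, a helicase of somatic cells as well, had signals of 10.31 in FC and 10.25 in F, and of 9.98 in MC and 9.95 in M, differences of 0.06 and 0.03.

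**Figure D2:**
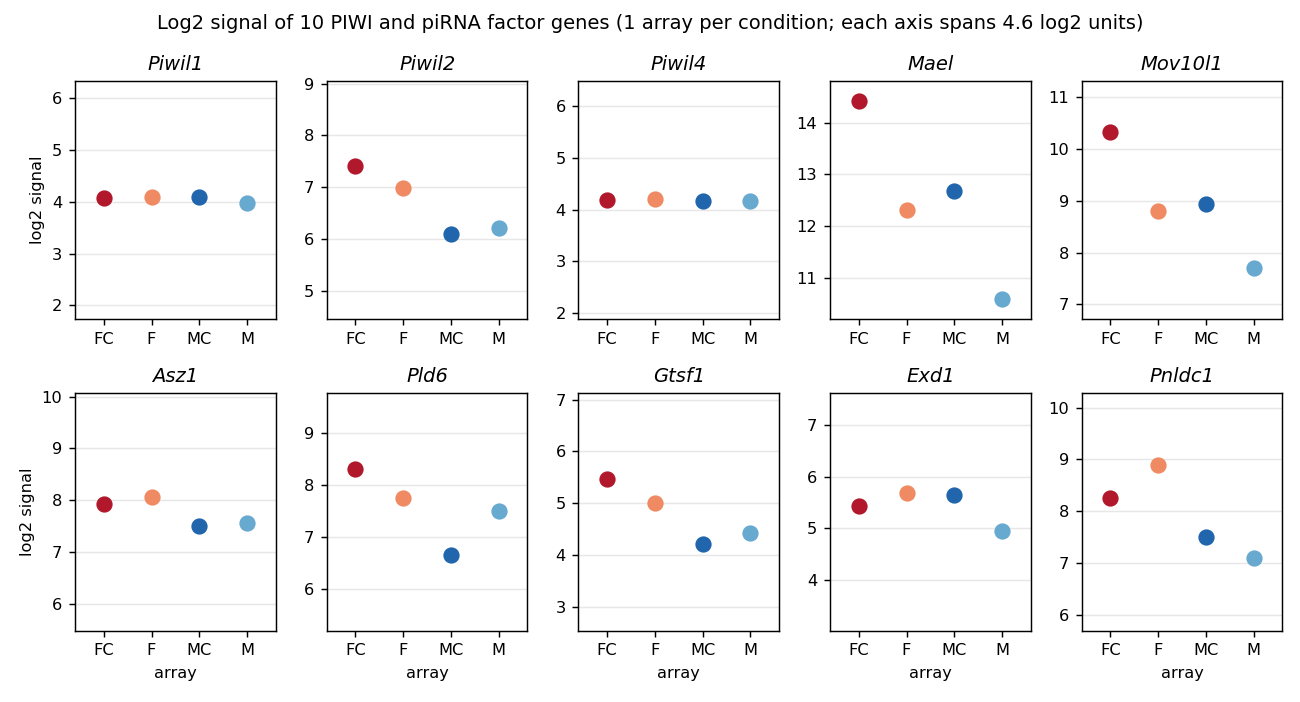
Deposited log2 signals (y axis) of the 10 genes on the 4 arrays, FC, F, MC and M, in 1 panel per gene, with 1 point per array and no error bars since each condition has 1 array. Mael and Mov10l1 have higher signals in FC than F and in MC than M, whereas Piwil1 and Piwil4 stay between 3.97 and 4.21.

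A difference common to both sexes can be tested only in a fit that assumes the same CreERT2 difference in females and males. It was made with limma, with sex as a term, and left 1 residual degree of freedom. Mael had a common difference of 2.09 (SE 0.0821, limma adjusted p = 0.663) and Mov10l1 one of 1.38 (SE 0.120, limma adjusted p = 0.663), both higher in 2 of 2 sexes, and neither passed the threshold of 0.05. No gene of 30738 passed it (0% of all genes), while 2243 genes, or 7.3%, had an unadjusted p under 0.05. Among the members these were 2 of 10, Mael and Mov10l1. The adjusted p of the other 8 ran up to 0.977 in this limma fit. Without the F array no residual degree of freedom was left for a sex term, and the fit set FC and MC against M alone, so that its values of 2.95 for Mael and 1.93 for Mov10l1 (limma adjusted p = 0.997 each) hold part of the sex difference and are no measure of CreERT2 alone.

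The 3 PIWI genes themselves showed no difference of 2-fold between germ cells with CreERT2 and without it. Piwil2 (chr14:70372477-70436898) encodes MILI, the cytoplasmic PIWI protein of fetal germ cells, and had signals of 7.40 in FC and 6.98 in F, and of 6.10 in MC and 6.22 in M. It was higher by 0.42 in FC and had a difference of -0.12 in MC, and its order of arrays followed sex, with both female arrays above both male arrays. Piwil4 (chr9:14701776-14740672) encodes MIWI2, the nuclear PIWI protein that is loaded in male germ cells later in fetal life. Its signals were 4.18 in FC, 4.21 in F, 4.17 in MC and 4.16 in M. Piwil1 (chr5:128736071-128755474) encodes MIWI, the PIWI protein of spermatocytes and spermatids, and had signals of 4.07 in FC, 4.10 in F, 4.09 in MC and 3.97 in M. Piwil1 and Piwil4 thus lay near the median of all clusters, which was 3.94 in FC, 3.91 in F, 4.05 in MC and 4.0 in M. Their mean signals were above those of 41.31% and 44.17% of genes, and both were below the median gene, so 8 of the 10 members passed a filter at the median mean signal. At such signals a low level and no expression were not separable on these arrays.

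Pld6, Pnldc1 and Exd1 had differences of opposite sign in the 2 sexes, and within each sex these were under 2-fold. Pld6 (chr11:59783893-59787657), the mitochondrial endonuclease that cuts precursors, had signals of 8.32 in FC and 7.75 in F, and of 6.65 in MC and 7.50 in M. It was higher by 0.57 in FC and lower by 0.85 in MC, where its signal was 0.555 of that in M. Its 2 further clusters, which are not placed on a chromosome, did not follow the male difference, at -0.09 and 0.24 in MC minus M, while all 3 clusters were above 0 in FC minus F (0.57, 0.29 and 0.41). Pnldc1 (chr17:12888723-12910580) encodes the exonuclease that trims the tail of piRNA intermediates, and had signals of 8.25 in FC and 8.89 in F, and of 7.50 in MC and 7.09 in M. Here FC was the lower one of the female pair, by 0.64, and MC the higher one of the male pair, by 0.41. Exd1 (chr2:119516505-119547627), an adapter that binds RNA beside the Tudor protein TDRD12, had signals of 5.43 in FC and 5.69 in F, and of 5.64 in MC and 4.95 in M. Its differences were -0.26 in females and 0.69 in males, where MC was 1.61-fold above M.

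Asz1 and Gtsf1 complete the group. Asz1 (GASZ, chr6:18050964-18109061), which anchors germ granules at mitochondria, had signals of 7.93 in FC, 8.05 in F, 7.50 in MC and 7.56 in M, differences of -0.12 and -0.06. Gtsf1 (chr15:103402458-103430445), a small zinc finger protein that assists PIWI proteins in target cleavage, had 5.46 in FC and 5.0 in F, and 4.21 in MC and 4.43 in M. That is 0.46 higher in FC and -0.22 in MC. Both male signals of Gtsf1 were below the median mean signal over genes, 4.5025, as were the signals of Piwil1 and Piwil4. A low level and no expression were thus not separable for Gtsf1 in MC and M, which bears on every difference that uses these arrays. Over all members, 7 of 10 (70.0%) had differences of opposite sign in the sexes, against 42.2% of all genes, and 3 had the same sign, namely Mael, Mov10l1 and Asz1. The male sign of the smallest of these depended on the scaling, since Piwil4 (0.01) lay between -0.04 and -0.025 in MC minus M under the 3 other scalings, and Asz1 (-0.06) turned to 0.08 after quantile normalization and to 0.062 after cyclic loess. None of the 7 differences between the sexes could be tested.

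**Figure D3:**
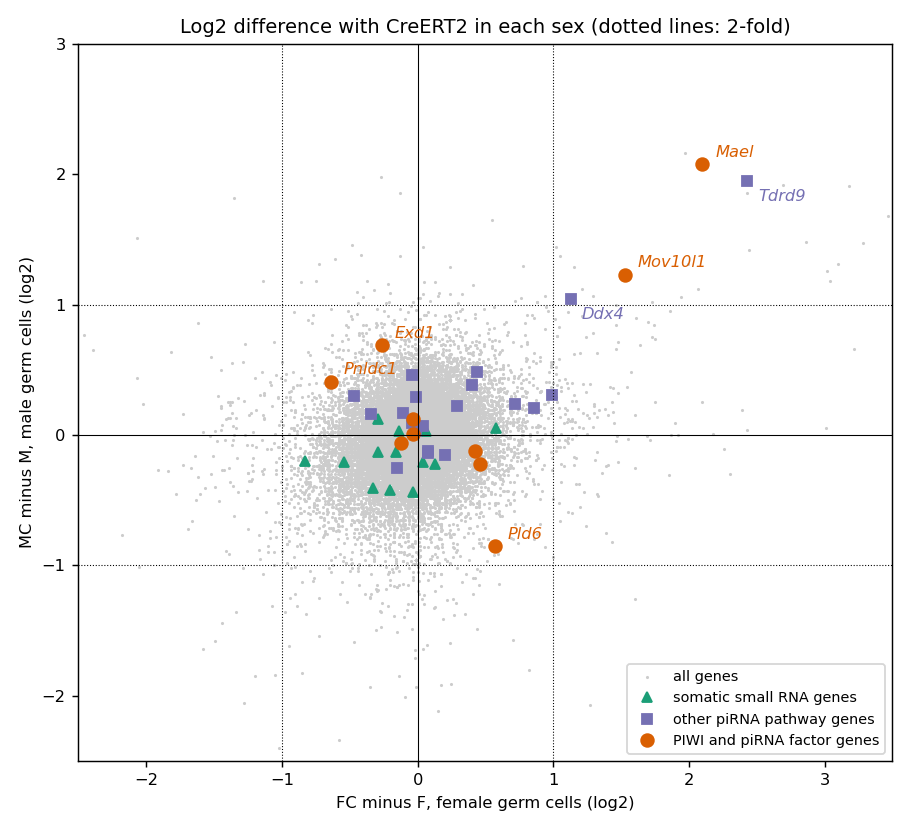
The difference of FC from F (x axis, log2) against that of MC from M (y axis, log2) for all genes (grey dots), the 10 members (orange circles, 5 of them named), other piRNA pathway genes (purple squares) and somatic small RNA genes (green triangles), with 1 array per condition. Dotted lines mark 2-fold, and 7 genes lie outside the axes. Mael (2.10 and 2.08) and Mov10l1 (1.53 and 1.23) lie at the upper right, apart from the other 8 members, which lie between -0.85 and 0.69 on both axes.

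Each member had its highest signal on a female array and its lowest on a male one. For Piwil1 (3.97 to 4.10) and Piwil4 (4.16 to 4.21) this order lies within a narrow range. A low level and no expression were not separable at these signals, and both genes are included in the counts below. The highest was on FC for 5 genes (Piwil2, Mael, Mov10l1, Pld6 and Gtsf1) and on F for the other 5. The lowest was on MC for 4 genes (Piwil2, Asz1, Pld6 and Gtsf1) and on M for 6. In germ cells without CreERT2, 10 of 10 members were lower in M than F, against 50.4% of all genes, and 3 of them (Mael, Mov10l1 and Pnldc1) by at least 2-fold, against 0.605% of all genes. None was 2-fold higher (0.729% of all genes). At 1.5-fold, 5 were lower (3.46%), Piwil2 and Exd1 being added, and none was higher (3.12%). The median difference of M from F was -0.655, beside -0.01 over all genes. In germ cells with CreERT2, 8 of 10 were lower in MC than FC, against 45.9% of all genes, with Piwil1 turning from 0.02 as deposited to between -0.102 and -0.079 under the 3 other scalings, and 5 by at least 2-fold (Piwil2, Mael, Mov10l1, Pld6 and Gtsf1), against 1.42% of all genes. At 1.5-fold Pnldc1 joined these (5.24% of all genes), and no member was higher by 2-fold (0.979%) or by 1.5-fold (3.82%). With the mean of a gene's clusters, 4 members were 2-fold lower in MC than FC. The share of genes 2-fold lower in MC than FC varied with mean signal. It was 0.423% under 6, 3.03% at 6 to 8, 4.18% at 8 to 10 and 2.68% at 12 or more. In M minus F these shares were 0.141%, 1.33%, 1.86% and 1.04%. In both CreERT2 states, 8 of 10 were lower in males, against 29.2% of all genes. These all-gene shares below 0 are as deposited, and they depended on the scaling. Under quantile normalization, median centring and cyclic loess, 20242, 21113 and 17960 of 30738 genes were below 0 in M minus F. In MC minus FC these were 18444, 20240 and 16982. Under each of these scalings, 10 members were below 0 in M minus F and 9 in MC minus FC. The median difference of MC from FC was -1.0, beside 0.02 over all genes. These comparisons use the same 4 arrays as the CreERT2 comparisons.

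Pnldc1 had the largest difference of M from F among the members, -1.80, rank 17 from the lowest of all genes, and a difference of -0.75 in MC minus FC. Mael followed at -1.71, rank 21 from the lowest, and had -1.73 in MC minus FC. Mov10l1 had -1.10 and -1.40. Mael and Mov10l1 were the members at least 2-fold lower in both M and MC, as were 0.286% of all genes. Piwil2 had -0.76 in M minus F and -1.30 in MC minus FC, Gtsf1 had -0.57 and -1.25, and Asz1 had -0.49 and -0.43. Pld6 differed little without CreERT2, at -0.25, and by -1.67 with it, although its 2 other clusters gave -0.38 and 0.09 in MC minus FC. Exd1 had -0.74 and 0.21, and Piwil1 and Piwil4 stayed within 0.13 of 0 in both.

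The fit of a sex difference common to both CreERT2 states gave -1.72 for Mael (SE 0.0821, limma adjusted p = 0.326), lower in males in 2 of 2 CreERT2 states, and -1.03 for Piwil2 (SE 0.178, limma adjusted p = 0.326). No member, and no gene (0% of all genes), passed an adjusted p of 0.05. At an unadjusted p under 0.05 there were 6 of 10 members (Piwil2, Mael, Mov10l1, Asz1, Gtsf1 and Pnldc1) and 4109 genes, or 13.4%. Other germ cell genes and genes of other cells differed between the sexes as well. All 9 germ cell markers were lower in M than F, with differences of -1.32 to -0.07 and a median of -0.39, and 7 of 9 were lower in MC than FC, with a median of -0.40. Of 7 endothelial markers, 6 were higher in M than F (median 0.67), and the median of MC minus FC was 1.0. All 5 Sertoli cell markers were higher in M than F, with a median of 0.63. The summed linear signal of the 9 germ cell markers was 73574 in MC and 120399 in FC, and 62146 in M and 126138 in F. Most of this sum came from Dazl, which had differences of -1.32 in M minus F and -0.97 in MC minus FC. The part of these cell types in the differences of the members was not tested.

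**Figure D4:**
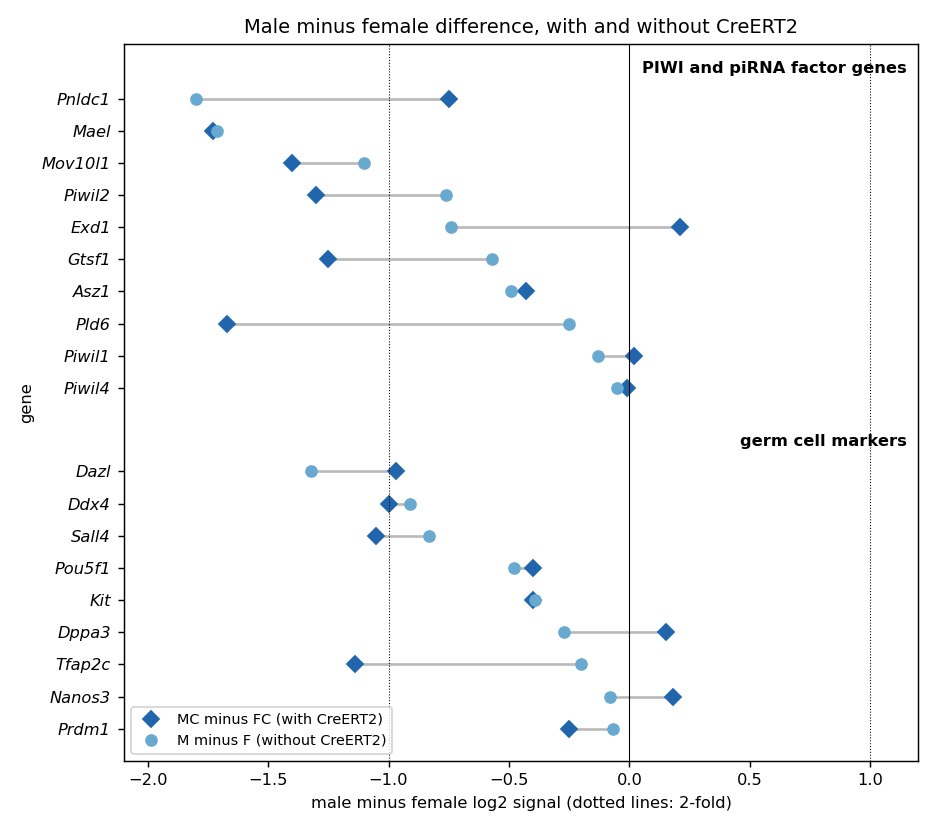
Difference of male from female germ cells (x axis, log2) for the 10 members (top) and the 9 germ cell markers (bottom), with CreERT2 (MC minus FC, dark diamonds) and without it (M minus F, light circles); dotted lines mark 2-fold. All circles lie below 0, and for Mael the symbols nearly coincide (-1.73 with CreERT2 and -1.71 without).

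Of 22 further piRNA pathway genes listed, 20 were measured. In FC minus F, 2 were at least 2-fold higher, against 0.547% of all genes, and the median was 0.08. Above 0 were 12, against 14610 of all 30738 genes. In MC minus M, 2 were at least 2-fold higher, against 0.224% of all genes, and the median was 0.215. Above 0 were 16, against 15551 of all 30738 genes. None was 2-fold lower. Tdrd9, a Tudor domain helicase that acts with MIWI2, had signals of 7.01 in FC and 4.58 in F, and of 6.49 in MC and 4.54 in M. Both arrays with CreERT2 lay above both without it, by 2.43 in females and 1.95 in males, and the common difference was 2.19 (SE 0.162, limma adjusted p = 0.663). Its difference of M from F was -0.04, beside -1.71 for Mael, and its promoter window held 2 E-boxes. Ddx4, the VASA helicase of nuage and also a germ cell marker, had signals of 11.08 in FC and 9.95 in F, and of 10.08 in MC and 9.04 in M, differences of 1.13 and 1.04. Its window held 1 E-box and 1 E2F core. Nearest to 0 were Tdrd6 (-0.01 and 0.03) and Spocd1 (0.04 and 0.07). E-boxes were also found in windows of Stk31, Tdrd1 and Dnmt3l, whose differences were 0.44 and 0.48, 0.40 and 0.38, and -0.04 and 0.09. A further gene with 2 E-boxes was not measured. The pathway genes with windows but no E-box had differences of -0.47 to 0.86 in FC minus F and of -0.15 to 0.46 in MC minus M. Of the 4 members with an E-box, Mael and Mov10l1 were 2-fold higher in both sexes. The other members with an E-box were not, with -0.03 and 0.12 for Piwil1 and 0.57 and -0.85 for Pld6. Among all windows 7.15% held an E-box, and a link between motif and difference was not tested.

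By sex, 17 of the 20 were lower in M than F, against 50.4% of all genes, with a median of -0.45. At least 2-fold lower were 3, against 0.605% of all genes, namely Gpat2 (-1.52), Stk31 (-1.22) and Tdrkh (-1.0). In MC minus FC, 15 were lower, against 45.9% of all genes, with a median of -0.485. Both all-gene shares below 0 are as deposited and were higher under the 3 other scalings. At least 2-fold lower were 5, against 1.42% of all genes. The 2-fold counts depended on the scaling, with 6 in M minus F and 7 in MC minus FC under median centring and 2 and 3 under cyclic loess. Gpat2, a mitochondrial acyltransferase relative that binds MILI, had the largest of these, with signals of 9.63 in MC and 11.80 in FC.

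Somatic relatives and the miRNA machinery were measured for 13 of 15 listed genes, and none was 2-fold apart in either sex. Their median difference was -0.16 in FC minus F and -0.20 in MC minus M, and came to -0.0185 and -0.0491 with cyclic loess scaling. As deposited, 9 of 13 were below 0 in each, against 50.1% and 47.3% of all genes. Ago1, an Argonaute protein of the miRNA pathway and thus a relative of the PIWI proteins, had the largest female difference, with 8.48 in FC and 9.31 in F. Mov10 and Tnrc6c lay nearest to 0. The median of M minus F was -0.20, and that of MC minus FC was -0.03, which became 0.0657 with cyclic loess and 0.0125 with quantile normalization.

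The genes whose pattern over the 4 arrays was most like that of Mael were sought among 15373 genes of at least median mean signal, by the Euclidean distance between signals less each gene's own mean. Slc25a31, a germ cell ADP/ATP carrier, was nearest, at a distance of 0.361. Its signals were 11.03 in FC and 9.06 in F, and 9.75 in MC and 7.59 in M. Hormad1, a meiotic chromosome axis protein, followed at 0.553, with 12.05 in FC and 10.06 in F, and 9.93 in MC and 8.62 in M. Gm15529 (0.683), Ctag2l2 (0.691) and Gm15363 (0.774) came next. In all 5, FC was the highest array and M the lowest, as in Mael. The search used the values that it describes, over 4 arrays only.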

How the data were processed

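Sorted germ cell RNA was hybridized to 4 arrays. The values deposited by the authors are log2 signals with 2 decimals for 65956 transcript clusters. The methods state that background was subtracted and arrays normalized by RMA (robust multiarray analysis) in R. The submitters' processing notes list Transcriptome Analysis Console instead, without a version, and the array named in the methods is not one with transcript clusters, so software and array type are unsettled here. The values were used as they stand. Depth does not apply to arrays, and their number limits the precision.

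Clusters were named from the platform annotation, updated to GRCm38.p6: 31292 had 1 gene, 1522 had several and stayed unnamed, and 33142 were not in it. For each of 30738 genes the cluster with the highest mean over the arrays was used. All 10 members were measured, 9 by 1 cluster. Genes 2-fold or more apart were counted, dim ones included. The common CreERT2 and sex differences were fitted with limma (two-sided, Benjamini-Hochberg over all genes, threshold 0.05), checked on simulated data. Named genes are all 10 members, Max, listed genes at 2-fold or nearest 0 and the 5 genes nearest Mael. Ago1, Gpat2, Stk31, Tdrkh, Tdrd1 and Dnmt3l were named after their values were seen. The members and lists were chosen with earlier results of these data known. Alternatives were quantile normalization, median centring, cyclic loess, the mean of the clusters of a gene, every cluster, a filter at the median mean signal, thresholds of 1.5-fold and 3-fold, a trend in the variance prior, and fits without the sex or CreERT2 term or without the F array. Protein sequences were not used here. R 4.3.3 with limma 3.58.1 and Python 3.11.15 with numpy 2.4.6, pandas 2.3.3 and matplotlib 3.10.9 were used.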

Additional observations from a re-analysis of the deposited data

Results flagged for a closer look

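In 7 members the difference between germ cells with CreERT2 and without it had opposite directions in the 2 sexes, and with 1 array per condition none of these differences between the sexes was tested. Given as the female difference (FC minus F) less the male one (MC minus M), the widest was that of the cluster used for Pld6, at 1.42 on the log2 scale. Pnldc1 had -1.05 and Exd1 -0.95, with higher differences in males. Gtsf1 had 0.68 and Piwil2 0.54. Piwil1 (-0.15) and Piwil4 (-0.04, with a male difference that turned sign under the other scalings), whose signals lay near the median of all clusters, had the narrowest. For Pld6 the opposite direction was seen in 2 of its 3 clusters, in 1 of them with a male difference of only -0.09. With the mean of its 3 clusters, Pld6 had 0.423 in FC minus F and -0.233 in MC minus M. That gap is narrower than those of Pnldc1 and Exd1.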

How the results depend on the processing

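Each difference rests on 1 array a condition, with no replicate to leave out and no interval. No paired analysis was possible because the labels give no replicate numbers. No setting turned the direction of a called result. Of the main counts and estimates under the alternatives, 214 stayed within their margin and 24 did not.

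At 3-fold, 1 member (Mael) was higher in FC, 1 was higher in MC, 1 was higher in both sexes, 2 were lower in MC than FC and 1 was lower in males in both CreERT2 states. At 1.5-fold, 1 member was lower in FC (Pnldc1), 1 was lower in MC (Pld6), 5 were lower in M than F and 4 were lower in males in both states. The share of all genes was not counted at 3-fold, nor at 1.5-fold for both states together. Member counts at those settings therefore have no background to be judged against. At 2-fold, the members lower in males in both states numbered 1 with cyclic loess, against 2 as deposited. Among the other piRNA pathway genes, 5 were higher in FC at 1.5-fold and 1 at 3-fold, and 1 was higher in MC at 3-fold and 1 with median centring. Those at least 2-fold lower in M than F numbered 6 with median centring and 2 with cyclic loess, against 3 as deposited, and those lower in MC than FC 7 and 3, against 5. At 1.5-fold, 1 somatic gene was lower in FC. Taking the mean of the 3 Pld6 clusters gave -0.233 in MC minus M and -0.653 in MC minus FC. The sign of small differences turned with the scaling for Piwil1 in MC minus FC, for Piwil4 in MC minus M and for Asz1 in MC minus M, the last to 0.08 with quantile normalization and 0.062 with cyclic loess.

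Every cluster, named or not, gave 305 higher and 376 lower in FC, 202 higher and 506 lower in MC, 1733 higher and 285 lower in M than F, 1548 higher in MC than FC and 41 higher in both sexes with CreERT2. In MC minus M, median centring gave 57 genes higher and 233 lower, quantile normalization 98 and 105, and cyclic loess 86 and 105, against 69 and 146 as deposited. In M minus F the counts were 167 and 261, 172 and 223, and 278 and 147, against 224 and 186. In MC minus FC, median centring gave 216 and 622, against 301 and 436. Median centring moved the median of all genes to -0.10 in M minus F. The limma adjusted p of Mael ran from 0.595 to 0.997 for CreERT2 and from 0.171 to 0.563 for sex, and that of Mov10l1 for CreERT2 from 0.595 to 0.997, with no gene past 0.05 in any of 7 settings for CreERT2 and 5 for sex.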
